A study of Mus musculus with 6 samples.

Results

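Apolipoproteins and lipid efflux genes were followed in cultures labelled as mouse aortic endothelial cells (MAEC), which the series describes as primary cells and the sample labels as a cell line. The set holds 7 genes (Apod, Apoe, Clu, Pltp, Pla2g7, Abca1 and Abcg1) of 54532 in the deposited count table, matched by gene symbol. They were chosen by their measured levels in female and male cultures, so the values that compare the sexes are given for these 7 genes as a description, without a p-value. The study asked how endothelial cells of the 2 sexes differ. Poly-A RNA-seq was done on 3 female and 3 male samples, all of wild-type genotype and all without treatment. The cells of all samples were grown in F-12 medium with 20% fetal bovine serum, heparin and endothelial cell growth factors. Neither age nor strain is given by the labels, and nothing in them ties a library to an animal or a culture of its own. The p-values of other genes therefore rest on the spread between these samples alone, and that spread may be technical.

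Cells carry surplus cholesterol to the outside through ATP-driven pumps in the membrane. ABCA1 loads it onto lipid-poor apolipoproteins such as apolipoprotein E, and ABCG1 hands it to particles that already hold lipid. Outside the cell, phospholipid transfer protein remodels these particles, and the phospholipase PLA2G7 (lipoprotein-associated phospholipase A2) cleaves platelet-activating factor and oxidized phospholipids on them. Apolipoprotein D is a lipocalin, a small carrier of single lipid molecules, and clusterin (apolipoprotein J) is an extracellular chaperone that also travels on lipoproteins. The oxysterol receptors LXR alpha and LXR beta are known to switch on Abca1, Abcg1, Apoe and Pltp when cholesterol accumulates, through paired DNA half-sites.

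The sequence upstream of 2 of these genes is shown, that of Abca1 because it carried matches to 4 of the 5 motifs searched, the most of the set, and that of Apod because it carried none. Both are the 250 bases before the annotated start in RefSeq (GRCm38.p6), read 5′ to 3′ on the gene's strand, with motif matches in capitals. The Abca1 window lies at chr4:53159896-53160145 on the minus strand, and the Apod window at chr16:31314809-31315058 on the minus strand.
Abca1: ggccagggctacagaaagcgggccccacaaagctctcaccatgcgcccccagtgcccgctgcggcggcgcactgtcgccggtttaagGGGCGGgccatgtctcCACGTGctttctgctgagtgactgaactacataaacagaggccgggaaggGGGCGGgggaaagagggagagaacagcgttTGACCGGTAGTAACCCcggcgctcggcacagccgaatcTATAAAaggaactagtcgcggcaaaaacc
Apod: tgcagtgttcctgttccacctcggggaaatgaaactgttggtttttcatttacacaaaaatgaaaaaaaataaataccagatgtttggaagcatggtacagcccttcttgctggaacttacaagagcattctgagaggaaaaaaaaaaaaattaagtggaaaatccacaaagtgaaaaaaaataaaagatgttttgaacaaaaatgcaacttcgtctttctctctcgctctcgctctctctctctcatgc
The Abca1 window held 2 GC boxes (GGGCGG), 1 E-box (CACGTG) and 1 TATA box (TATAAA, 29 to 24 bases before the start). It also held, 67 to 52 bases before the start and on the opposite strand, a match to the LXR type of direct repeat (AGGTCA, any 4 bases, AGGTCA) with 3 mismatches in 12 fixed letters. None of these matches overlapped each other. Searched on both strands with up to 3 mismatches, that repeat was found in 18.5% of 32851 RefSeq promoter windows of the same length. The GC box was found in 32.7%, the E-box in 6.02%, the TATA box in 12.4% and the interferon-stimulated element (GAAA, any 2 bases, GAAA, on either strand) in 2.98% of them. The Apod window held none of the 5 and was 36.4% G or C, against 61.6% for Abca1 and a median of 52.4% over all windows. Windows were matched for 5 of the 7 genes, Clu and Abcg1 apart. The direct repeat was found in no window of Apoe, Pltp or Pla2g7, and sequence farther upstream than the windows was not searched. The windows of Pltp, whose levels overlapped between the sexes, and of Pla2g7, whose levels were far apart, each held 1 GC box. Of the 3 Apoe windows, 1 held TATA box matches. That Apoe window and the Pla2g7 window precede RefSeq starts that lie inside the gene bodies given below. A match is a description of letters, and whether any match is bound was not measured.

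The libraries held 17410996 to 22993574 counts. Levels are CPM, each count set relative to its library's total after TMM scaling, with mean ± SD over the 3 libraries of a sex. Each log2 fold change is female relative to male, with its standard error from the edgeR fit. The sexes matched their labels: Xist had 69055 counts over the female and 19 over the male libraries, while Uty, Kdm5d, Eif2s3y and Ddx3y, all on chromosome Y, were at 0 counts throughout the female group. Endothelial identity was largely absent, since 10 of 12 endothelial markers never reached 1 CPM, and the defining ones Cldn5, Tie1 and Cdh5 had 0 counts in all 6 libraries. Summed over their lists, endothelial markers (mainly Flt1) reached 55.4 to 66.1 CPM in female and 62.6 to 83.4 CPM in male libraries. The summed level of 12 fibroblast markers was 11865 to 12739 CPM in female and 6561 to 7161 CPM in male libraries. Col3a1 (4976 ± 227 CPM in female, 2014 ± 166 in male), Dcn (1192 ± 33.0 and 332 ± 22.7) and Fbln1 (1325 ± 71.6 and 516 ± 20.4) carried most of that difference. The means of 4 of the 12 went the other way, among them Thy1 (205 ± 5.26 and 290 ± 43.2). The part of these markers in the results below was not tested. Male replicate 3 stood apart, with correlations of log2 CPM to the other male libraries of 0.966 and 0.973, against at least 0.983 among the female libraries.

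Apod, the lipocalin, was present in female cultures and nearly absent from male ones. Its gene lies on chromosome 16, 31296192 to 31314808, minus strand. Female replicates 1, 2 and 3 had 732, 829 and 1087 counts (33.4, 46.6 and 46.4 CPM), and male replicates 1, 2 and 3 had 5, 4 and 2 (0.242, 0.177 and 0.114 CPM). The groups did not overlap, and the lowest female level was 138 times the highest male level. The log2 fold change was 7.82 ± 0.28. On summed counts the ratio of female to male was 232 (95% exact binomial interval 130 to 466, which covers counting error only).

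Apoe, which encodes the apolipoprotein that lipoprotein receptors bind, was by far the most abundant of the 7 genes in both sexes and differed least among those whose groups were separate. It lies on chromosome 7, 19696109 to 19699188, minus strand. Female libraries stood at 749, 851 and 699 CPM and male libraries at 921, 1155 and 1607 CPM. All male libraries were above all female ones, but the nearest pair was only 1.08-fold apart, and male replicate 3 was the highest of the 6. The log2 fold change was -0.68 ± 0.19, and -0.44 without male replicate 3.

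Clu, the chaperone gene on chromosome 14 (65968483 to 65981547, plus strand), was low in female and high in male cultures. Levels were 17.1, 18.9 and 18.6 CPM in the female and 293, 306 and 385 CPM in the male libraries. Female levels varied by 5.22% (coefficient of variation), the least of the 7 genes, and the nearest pair of libraries across the sexes was 15.5-fold apart. The log2 fold change was -4.17 ± 0.14.

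Pla2g7, the phospholipase gene on chromosome 17 (43568098 to 43612201, plus strand), followed the same direction with a wider gap. Female libraries stood at 3.79, 4.27 and 4.48 CPM and male libraries at 233, 213 and 301 CPM, 47.6-fold apart at the nearest pair. The log2 fold change was -5.89 ± 0.18. The antisense gene 1700071M16Rik lies inside Pla2g7 on the other strand, shares 319 of its 2905 annotated exon bases and had 71, 51 and 13 counts in male and 0 in all female libraries. Whether counting used strand is not known, so reads from the shared bases could have added to the Pla2g7 counts or been lost from them. The counts of 1700071M16Rik were few beside the 4816 to 5294 counts of Pla2g7 in male libraries, which sets no limit to such a loss.

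Pltp, the phospholipid transfer gene on chromosome 2 (164839518 to 164857711, minus strand), had overlapping levels in the sexes. Female libraries stood at 33.0, 27.2 and 31.0 CPM and male libraries at 25.7, 33.8 and 33.4 CPM. The log2 fold change was -0.03 ± 0.15, and its sign turned without female replicate 2 (0.04), male replicate 2 (0.03) or male replicate 3 (0.03). Ctsa, which encodes the lysosomal protease cathepsin A, overlaps its end on the opposite strand and shares 495 of 2562 exon bases. Ctsa had 5025 to 8099 counts per library, against 483 to 766 counts of Pltp. How reads from the shared bases were assigned is not known, so they could have added to the Pltp counts or been lost from them.

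The cholesterol pumps Abca1 and Abcg1 did not go together. Abca1 (chromosome 4, 53030787 to 53159895, minus strand) stood at 83.5, 72.3 and 70.0 CPM in female and 78.9, 66.0 and 36.4 CPM in male libraries. The ranges overlapped, and male replicate 3 alone lay far below the other 5 libraries. The log2 fold change was 0.31 ± 0.24 with all libraries and 0.05 without male replicate 3.

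Abcg1 (chromosome 17, 31057698 to 31115777, plus strand) was near the limit of detection. Female replicates 1, 2 and 3 had 1, 0 and 0 counts, and male replicates 1, 2 and 3 had 34, 18 and 12 (1.64, 0.794 and 0.683 CPM). A count of 0 in a single female library allows up to 0.169 CPM in replicate 2 and 0.128 CPM in replicate 3, at 3 counts. On summed counts the ratio of male to female was 66.3 (95% exact binomial interval 11.5 to 2659). Gm25447, annotated as an rRNA gene inside Abcg1, had 0 counts in all libraries. Even in male cultures the Abcg1 level was low, at 1.04 ± 0.526 CPM. RNA from whole cultures was measured, so for each of these genes fewer expressing cells and less RNA per cell cannot be told apart.

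**Figure D1:**
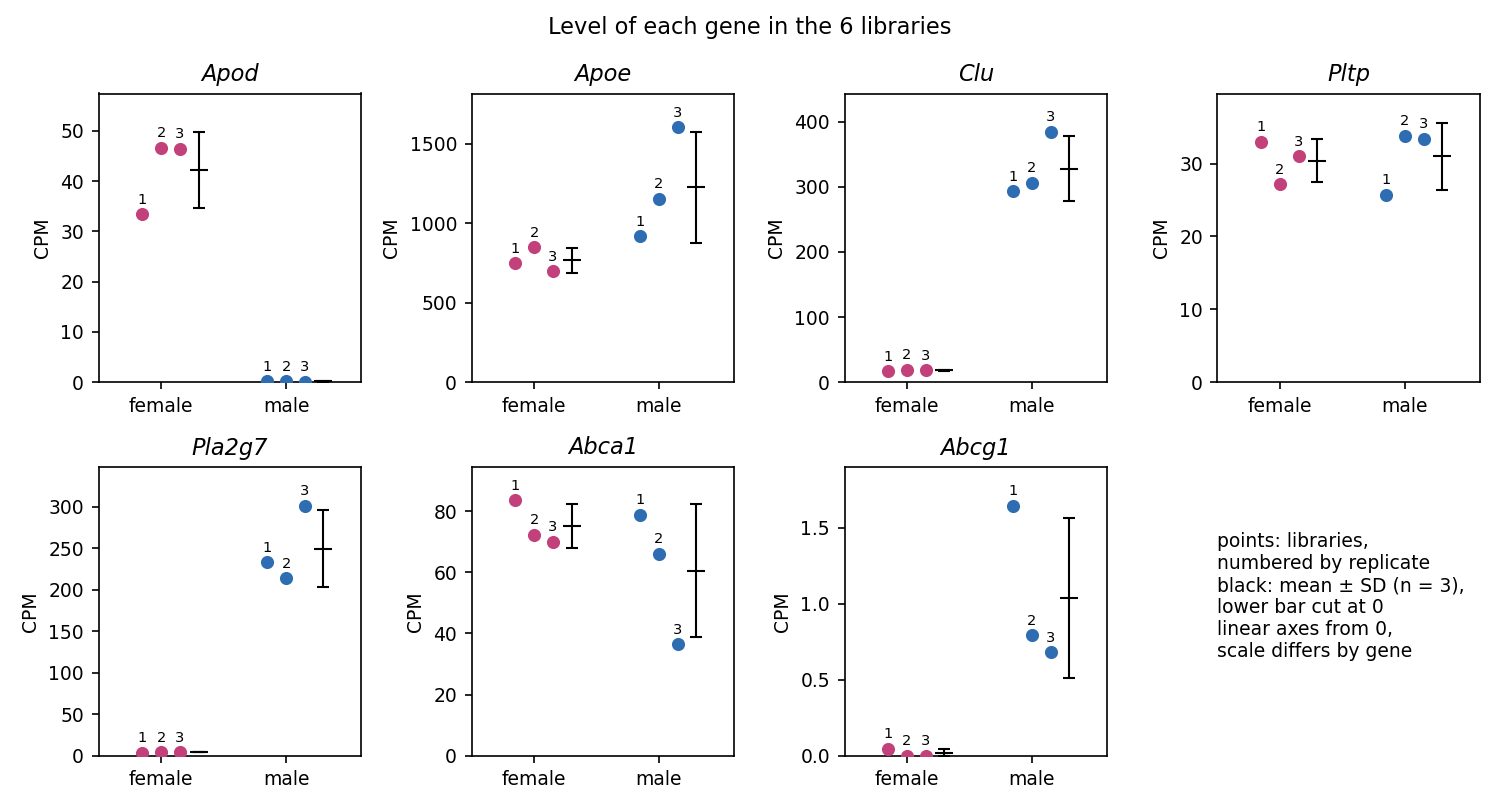
Level of each gene in CPM (vertical axes, linear from 0 and scaled by gene) in female and male libraries. Points are libraries numbered by replicate, and black bars are mean ± SD of 3 libraries. Apod is near 0 in the 3 male libraries, Clu, Pla2g7 and Abcg1 are far lower in the 3 female than in the 3 male libraries, and Abca1 in male replicate 3 (36.4 CPM) lies below the other 5 libraries.

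By edgeR, with a call at an adjusted p under 0.05, 1 of the 7 genes was called higher in female cultures (Apod), 4 were called lower (Apoe, Clu, Pla2g7 and Abcg1) and 2 were not called. Of the 14932 genes tested, 9.68% were called higher and 8.62% lower, 18.3% in either direction. The levels of 5 of the 7 did not overlap between the sexes, as for 35.9% of all genes tested. The choice of the genes used this contrast, so nothing is read from these counts. The call of Apoe was not made without female replicate 1, 2 or 3 (log2 fold change -0.67, -0.77 and -0.62) or without male replicate 2 (-0.73).

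The order of the 7 genes by level per gene length changed between the sexes below the first place. In female libraries Apoe led with 358 ± 36.1 CPM per kb, followed by Apod (16.4 ± 2.93), Pltp (11.9 ± 1.16), Abca1 (7.26 ± 0.697), Clu (5.30 ± 0.277), Pla2g7 (1.44 ± 0.122) and Abcg1 (0.00374 ± 0.00648, from 1 count). No neighbours in that order overlapped. In male libraries Apoe led with 574 ± 163 CPM per kb, followed by Clu (95.5 ± 14.4), Pla2g7 (85.8 ± 15.9), Pltp (12.1 ± 1.77), Abca1 (5.83 ± 2.10), Abcg1 (0.256 ± 0.129) and Apod (0.0688 ± 0.0249). There, the ranges of Clu and Pla2g7 overlapped and no other neighbours did. Among the genes tested, 99.5% had a lower per-length level than Apoe in female and 99.7% in male libraries. Clu had 52.4% of tested genes below it in female and 97.0% in male libraries, and Pla2g7 26.5% and 96.7%. Of the summed CPM of the 7 genes, Apoe took 81.7% in female and 64.1% in male libraries.

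**Figure D2:**
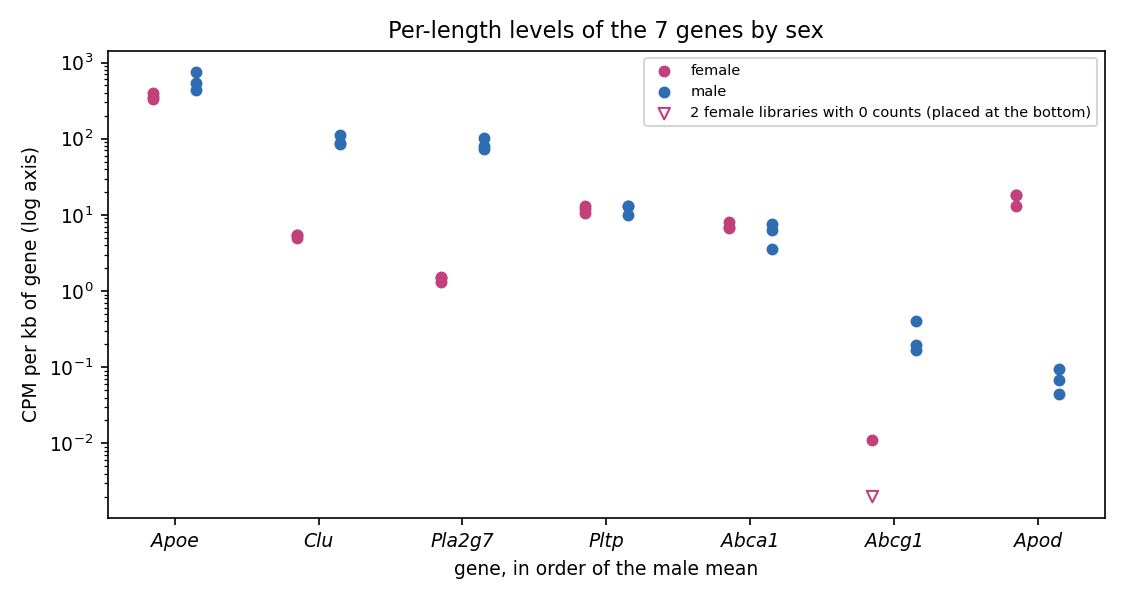
CPM per kb of gene (log axis) of each gene in the 3 female and 3 male libraries, with genes in the order of their male mean. The open triangle stands for the 2 female libraries in which Abcg1 had 0 counts and is placed at the bottom of the axis. Apoe is highest in both sexes, Clu and Pla2g7 come next in male libraries only, and Apod moves from second place in female to last in male libraries.

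Relative spread within a sex was wider among male libraries for the 5 genes with enough counts in both sexes to compare it, Apod (11 male counts) and Abcg1 (1 female count) apart. Apoe varied by 10.1% (coefficient of variation) in female and 28.4% in male libraries, and Abca1 by 9.60% and 36.0%. For both genes male replicate 3 was the library farthest from the rest, whereas for Pltp it was male replicate 1. In male replicate 3, genes up to 1995 bases long had a median log2 CPM 0.40 above the mean of the other male libraries, and genes of 7105 bases or more a median 0.37 below it (-0.37). The 7 genes were set beside genes of like length. By definition, as many tested genes lie outside the quartiles of their bin as inside, so nothing is read from how many of the 7 did. Apoe, with 2138 bases, was 0.64 above, where genes of 1995 to 3292 bases had a median of 0.22 and quartiles of -0.06 and 0.43. Abca1, the longest of the set with 10363 bases, was 0.99 below (-0.99), where the quartiles of its bin were -0.64 and -0.09. Clu (3437 bases, 0.36) and Pla2g7 (2905 bases, 0.43) also lay above the quartiles of their bins, Pla2g7 by a small margin. Apod (2577 bases, -0.53) and Abcg1 (4066 bases, -0.68) lay below them on few counts, and Pltp (2562 bases, 0.18) lay between them. With an offset per library for gene length, an alternative chosen after the data were seen, the log2 fold change of female over male was 0.38 for Abca1 and -0.71 for Apoe, neither nearer to 0 than without it. What set this library apart was not tested.

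**Figure D3:**
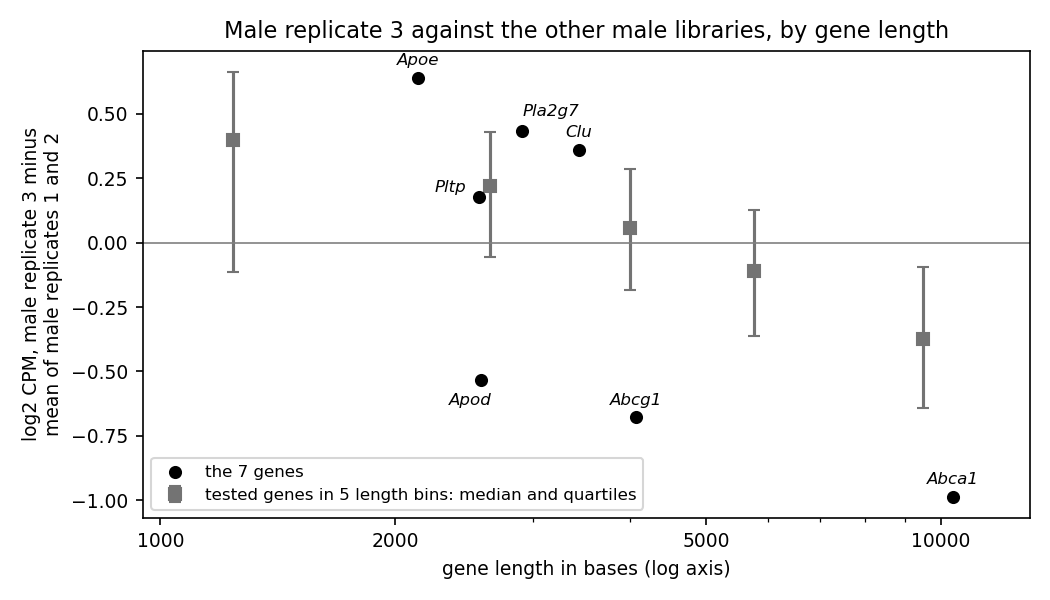
Difference in log2 CPM between male replicate 3 and the mean of male replicates 1 and 2 (vertical axis) against gene length in bases (log axis). Grey squares with bars are the median and quartiles of tested genes in 5 bins of length, and black points are the 7 genes. The medians go from 0.40 in the shortest to -0.37 in the longest bin, and Abca1 (-0.99) lies at the long end.

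The genes most like each of the 7 over the 6 libraries were taken as those with the smallest root mean square difference of centred log2 CPM. For Apoe the closest were Tspo, which encodes a cholesterol-binding protein of the outer mitochondrial membrane (difference 0.03), and Pdlim2 (0.07). For Apod they were the alcohol dehydrogenase gene Adh1 (0.25; 806 counts over the female and 0 over the male libraries) and the interferon-induced GTPase gene Gbp2b (0.33; 789 and 0 counts). For Clu they were the matrix gene Sparcl1 (0.19) and Nxf3 (0.20; 0 counts over the female and 104 over the male libraries), and for Pla2g7 the transcription factor genes Tcf21 (0.16) and Tbx5 (0.18), both with 0 counts in every female library. Abca1 was most like Zfp182 and Mid1 (0.04 each), Pltp most like Prpf3 and Fam214b (0.05 each), and Abcg1 most like 1700030C10Rik (0.22) and Gm16010 (0.27; 0 counts over the female and 45 over the male libraries). Where a gene was at 0 counts in a sex, its likeness rests on the prior count of 2 added before the logarithm. Male replicate 3 was the highest library for Apoe, Tspo and Pdlim2 and the lowest for Abca1, Zfp182 and Mid1. Whether these likenesses hold without that library was not tested. Within the set, the closest pairs were Apoe and Pltp (0.38) and Pltp and Abca1 (0.48), and the most distant was Apod and Pla2g7 (6.57).

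The nearest tested protein-coding genes on either side of each gene were examined for the same contrast, a choice made after the data were seen. Genes that were not tested were passed over, so distances ran from 2125 bases (Tomm40 from Apoe) to 378546 bases (Wdr4 from Abcg1). Of those called, Slc44a1 was the farthest, 280518 bases from Abca1. Of these 14 neighbours, 4 rose in female cultures, 3 fell and 7 did not pass, beside 18.3% called of all genes tested. Both neighbours of Clu fell: Scara3, a scavenger receptor family gene, from a male level of 1139 ± 72.0 CPM to a female level of 196 ± 7.95 CPM (adjusted p = 6.97e-07), and Ephx2, an epoxide hydrolase, by 0.57 ± 0.16 on the log2 scale (adjusted p = 0.0381, and 0.0509 to 0.136 without any 1 library other than male replicate 3). Both neighbours of Abca1 rose, Nipsnap3b by 0.65 ± 0.14 (adjusted p = 0.00955) and the choline transporter gene Slc44a1 by 0.58 ± 0.13 (adjusted p = 0.0118). Nipsnap3b did not pass without female replicate 1 (adjusted p = 0.0515) or male replicate 2 (0.0526), nor did Slc44a1 without female replicate 1 (0.0627), female replicate 2 (0.0624) or male replicate 2 (0.0608). Beside Pla2g7, Adgrf5 fell from 3.28 ± 0.757 to 0.148 ± 0.138 CPM (adjusted p = 0.00107). Beside Apod, Ppp1r2 rose by 0.95 ± 0.11 (adjusted p = 0.000245), and beside Abcg1, Dnah8 rose by 2.46 ± 0.47 (adjusted p = 0.00484). Neither neighbour of Apoe (Apoc1 and Tomm40) or of Pltp (Neurl2 and Pcif1) was called.

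Other genes of lipid transport were taken from 7 lists, which together held 154 genes, 108 of them tested. Of these 108, 26 rose in female cultures, 19 fell and 63 did not pass, and their median log2 fold change was 0.03 against -0.01 for all genes tested. Of all genes tested, 18.3% were called in either direction. As the lists were chosen with earlier results of these data known, nothing is read from how many of their genes were called. Genes named below are mainly those with the smallest p of each list.

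Of 23 other apolipoprotein genes, 7 had 0 counts in all libraries and only 6 were tested (median log2 fold change 0.48). Of the 6, 3 rose, 1 fell and 2 missed the threshold. The apolipoprotein L genes Apol9b (2.84 ± 0.695 CPM in female, 0.211 ± 0.229 in male, adjusted p = 0.00454) and Apol9a (2.17 ± 0.580 and 0.232 ± 0.228, adjusted p = 0.0130) rose. Both are near copies of each other, so reads can be split between them. Saa4, a serum amyloid A gene, rose by 1.34 ± 0.36 (adjusted p = 0.0275), and Apol6 fell by 3.21 ± 0.74 on the log2 scale (adjusted p = 0.0140). Of these, Saa4 did not pass without any 1 of the female replicates or without male replicate 1 (adjusted p = 0.0567 to 0.0961), Apol6 without female replicate 1 (0.0681) or male replicate 2 (0.0759), and Apol9a without female replicate 1 (0.0603). Apoc1, which lies 3449 bases from Apoe in the same cluster, stood at 0.241 ± 0.227 CPM (female) and 0.855 ± 0.445 CPM (male) and was not called (adjusted p = 0.182), and Apoc2 and Apoc4 of that cluster had 0 counts in all libraries. Saa3, at 150 ± 3.13 and 194 ± 53.1 CPM, was not called (adjusted p = 0.192), but passed as lower in female cultures without male replicate 1 (adjusted p = 0.0248).

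Of the 20 tested genes of cholesterol efflux and high-density lipoprotein remodelling, 7 rose, 3 fell and 10 did not pass (median 0.12). Lipg, the endothelial lipase that cleaves lipoprotein phospholipids, rose from a male level of 42.2 ± 2.77 CPM to a female level of 137 ± 2.36 CPM (adjusted p = 3.92e-06). Nceh1, a hydrolase that frees stored cholesterol from its esters, rose from 8.81 ± 1.64 to 48.9 ± 7.75 CPM (adjusted p = 1.29e-05), and Cav1, the coat protein of caveolae, from 49.1 ± 1.58 to 122 ± 8.38 CPM (adjusted p = 1.93e-05). Scarb1, the receptor for high-density lipoprotein, rose by 0.98 ± 0.14 (adjusted p = 0.000907). Ch25h, which makes the oxysterol 25-hydroxycholesterol, fell from 35.4 ± 5.10 to 10.3 ± 1.93 CPM (adjusted p = 8.42e-05). Abcg4, the closest relative of Abcg1, fell by 0.89 ± 0.18 on the log2 scale (adjusted p = 0.00680), with 7.69 ± 0.476 CPM in male and 4.16 ± 0.308 in female libraries.

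Of the 25 tested regulators and targets in the LXR, PPAR and SREBP list, 3 rose, 3 fell and 19 did not pass (median -0.06), and without male replicate 3 there were 6 that rose and 8 that fell. Nr1h3, which encodes LXR alpha, fell from a male level of 4.61 ± 0.609 CPM to a female level of 2.00 ± 0.574 CPM (adjusted p = 0.0154), and did not pass without female replicate 2 (0.0561), female replicate 3 (0.0534) or male replicate 2 (0.0563). Nr1h2, which encodes LXR beta, stood at 85.3 ± 14.1 CPM in male and 101 ± 4.09 in female libraries and was not called with all libraries (adjusted p = 0.258), while without male replicate 3 it rose by 0.36 (adjusted p = 0.00831). Smpdl3a, a phosphodiesterase gene placed in the list for its response to LXR in human cells, fell from 3.68 ± 0.519 to 0.266 ± 0.0377 CPM (adjusted p = 7.06e-05). Pparg, the regulator of fat cell genes, fell from 27.6 ± 2.72 to 9.77 ± 1.93 CPM (adjusted p = 0.000246). The coactivator gene Ppargc1a rose from 4 counts over the male to 222 over the female libraries (adjusted p = 0.000211), and Insig1, which holds SREBP in the endoplasmic reticulum, rose by 0.83 ± 0.10 (adjusted p = 0.000281).

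Lipoprotein receptors and their regulators went both ways, with 4 of 14 tested genes higher, 4 lower and 6 not passing (median 0.04). Olr1, the receptor for oxidized low-density lipoprotein, fell from a male level of 84.4 ± 13.5 CPM to a female level of 23.7 ± 1.27 CPM (adjusted p = 1.70e-05). Vldlr, a receptor for apolipoprotein E, fell from 152 ± 24.0 to 48.2 ± 5.41 CPM (adjusted p = 3.75e-05). The fatty acid and lipoprotein receptor gene Cd36 rose from 4.06 ± 0.516 to 13.9 ± 1.91 CPM (adjusted p = 0.000121), and Sort1, a sorting receptor, from 7.42 ± 3.10 to 31.0 ± 4.68 CPM (adjusted p = 0.000837). Mylip, an LXR target whose product sends the LDL receptor to degradation, rose by 0.99 ± 0.14 (adjusted p = 0.000985).

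Of the 12 tested genes of platelet-activating factor and secreted phospholipases, 3 rose, 2 fell and 7 did not pass (median 0.06). Pafah2, the intracellular relative of Pla2g7, was opposite to it: Pafah2 rose from 18.3 ± 0.900 to 27.4 ± 0.642 CPM (adjusted p = 0.00747). Pla2g4a, the phospholipase that releases arachidonic acid, rose by 0.82 ± 0.10 (adjusted p = 0.000286), and Enpp2 (autotaxin) from 3.20 ± 0.516 to 11.4 ± 1.43 CPM (adjusted p = 0.000154). Lpcat2, an enzyme of platelet-activating factor synthesis, fell by 0.72 ± 0.18 on the log2 scale (adjusted p = 0.0183), and did not pass without female replicate 1 (0.0704), female replicate 2 (0.0843) or male replicate 1 (0.0597). Without female replicate 1 or 2, the list had 3 genes that rose and 0 that fell. Ptafr, the receptor for platelet-activating factor, had 0 counts in all libraries.

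Of 23 tested genes of triglyceride lipases and fatty acid handling, 4 rose, 4 fell and 15 did not pass (median -0.01), and without male replicate 3 there were 6 that rose and 7 that fell. Plin4, a lipid droplet coat gene, fell from 31.3 ± 4.26 to 2.57 ± 0.366 CPM (adjusted p = 1.43e-06), and Angptl4, which inhibits lipoprotein lipase, from 442 ± 60.6 to 86.6 ± 7.82 CPM (adjusted p = 3.30e-06). Lpl, the lipase itself, fell from 22.8 ± 1.55 to 12.5 ± 1.07 CPM (adjusted p = 0.00174). The droplet coat gene Plin2 rose by 0.80 ± 0.12 (adjusted p = 0.00143) and the fatty acid binding gene Fabp5 by 1.69 ± 0.18 (adjusted p = 0.000144).

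In the list of lipocalins and lipid transfer relatives, 2 of 8 tested genes rose, 2 fell and 4 did not pass (median -0.07). The list also holds genes of other families, such as Psap. Lcn2, an iron-siderophore carrier of the same lipocalin family as Apod, was opposite to it and fell from a male level of 473 ± 70.0 CPM to a female level of 122 ± 7.20 CPM (adjusted p = 7.91e-06). Rbp4, the retinol carrier of that family, rose from 0.659 ± 0.111 to 2.83 ± 1.12 CPM (adjusted p = 0.00608). Lbp, the lipopolysaccharide binding relative of Pltp, fell from 697 ± 88.3 to 121 ± 10.5 CPM (adjusted p = 1.82e-06), whereas Pltp itself overlapped between the sexes. Psap, the precursor of the saposins that present lipids to lysosomal enzymes, rose by 0.78 ± 0.11 (adjusted p = 0.000786).

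**Figure D4:**
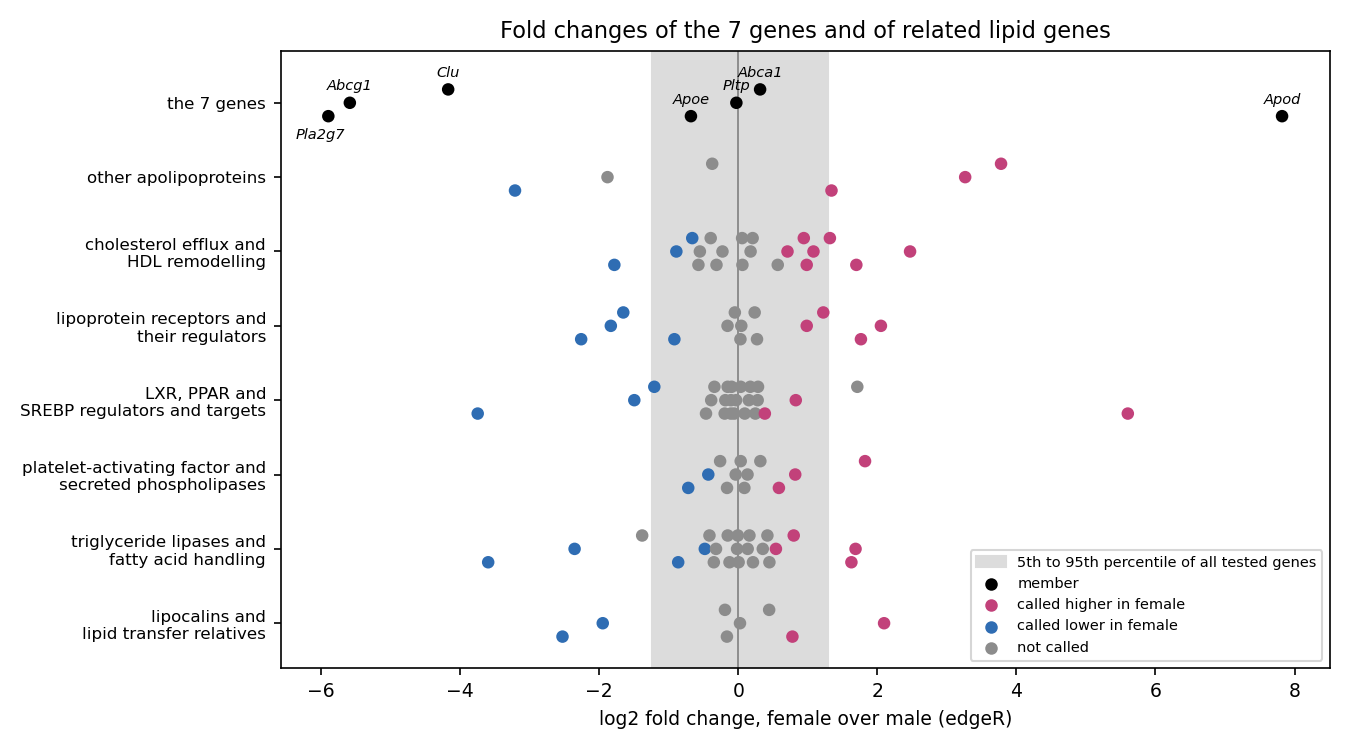
Log2 fold change of female over male (edgeR, horizontal axis) of the 7 genes, in black and shown without a test, and of tested genes in 7 lists of lipid genes, coloured by call. The grey band spans the central 90% of all tested genes (-1.24 to 1.29), and the position of Abcg1 rests on 1 female count. Of the 7, Apod lies far to the right, Clu, Abcg1 and Pla2g7 far to the left, and Apoe, Pltp and Abca1 inside the band, while each list has called genes on both sides.

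Several of the 7 genes are abundant in macrophages, fat cells or glia, so markers of these cells were measured beside them. Of 12 macrophage markers, 8 stayed under 1 CPM in every library, and Ptprc, Itgam and Tyrobp had 0 counts in all 6. Their summed level, mainly Cd14 and Lyz2, was 29.8 to 38.8 CPM in female and 13.2 to 20.1 CPM in male libraries. Of 8 adipocyte markers, 7 stayed under 1 CPM, with Cidec, Lep and Cfd at 0 counts, and the summed level, mainly Fabp4, was 22.1 to 24.2 CPM in female and 14.4 to 26.7 CPM in male libraries. Of 8 glial markers, 5 stayed under 1 CPM, with Gfap at 0 counts and Sox10 at 0 in male and 0.112 ± 0.195 CPM in female libraries, and the summed level, mainly Pmp22, was 61.9 to 64.9 and 71.1 to 81.9 CPM. Of 8 smooth muscle markers, 3 stayed under 1 CPM, and the summed level, mainly Smtn, was 118 to 121 CPM in female and 142 to 176 CPM in male libraries. Acta2, the smooth muscle actin gene, had a female level of 3.23 ± 0.749 CPM and a male level of 20.3 ± 6.01 CPM. This was the direction of Clu and Pla2g7, and the means of Tagln, Cnn1 and Smtn also went that way. Those of Des (0.839 ± 0.534 and 0.0588 ± 0.102 CPM), Lmod1 (3.64 ± 0.342 and 3.41 ± 0.697), Myh11 and Myocd were higher in female libraries. The part of these markers in the results was not tested.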

How the data were processed

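Poly-A RNA-seq of 3 female and 3 male samples was analysed from whole-number read counts per gene, which the authors deposited without normalization. The submitters' processing notes name HISAT2 (2.0.5) together with featureCounts (1.5). Neither a genome build nor a strand setting is stated in those notes. GENCODE M21 (GRCm38) held 99.9% of the gene identifiers, and 98.3% of those had equal coordinates, as did 6 of the 7 genes. Abcg1 has 4066 bases in the deposited annotation and 7298 exon bases in GENCODE M21. Its per-length level and length bin rest on the shorter length. The test was that of edgeR 4.0.16 in R 4.3.3 (quasi-likelihood F test, robust dispersions, TMM scaling, filterByExpr with a minimum count of 10, all 6 libraries), with Benjamini-Hochberg adjustment over 14932 genes and a call at an adjusted p under 0.05; the fit was tested on simulated counts. The genes and lists were chosen with earlier results of these data known. Named list genes are the 4 with the smallest p of each list. Scarb1, Abcg4, Mylip, Nr1h3, Nr1h2, Saa3, Apoc1, Apoc2, Apoc4, Ptafr and Lpl were named after their values were seen. Likeness used log2 CPM with a prior count of 2, and the 2 closest genes are given. Libraries of the same sex differed by more than sampling noise (chi-square per degree of freedom 7.82 to 78.4). Tried as alternatives were limma-voom (limma 3.58.1), DESeq2 1.42.0, upper quartile and RLE scaling, other filters, a block for replicate number, leaving out single libraries, an adjusted p under 0.01 and an offset for gene length. Floors and intervals cover counting error only.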

Additional observations from a re-analysis of the deposited data

How the results depend on the processing

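Of the log2 fold changes of the 7 genes, 95 of 97 values under the alternatives moved by less than the spread between replicates; Abcg1, with 1 female count, was -4.78 by limma-voom and -7.43 to -5.08 with a library left out, lowest without female replicate 1. The cause was not tested for any change below. Genes called numbered 3288 higher and 3283 lower by limma-voom and 900 and 835 at an adjusted p under 0.01. With 1 library left out these were 967 to 2508 higher and 903 to 2543 lower, both highest without male replicate 3. Calls among the other apolipoproteins numbered 0 with a mean of at least 50 counts, where fewer genes are tested, 1 at an adjusted p under 0.01, and 1 to 6 with a library left out. Of the LXR, PPAR and SREBP list 10 were called by DESeq2, 18 by limma-voom, 11 with the length offset and 4 to 14 with a library left out. Of the efflux list 16 were called by limma-voom, of the lipase list 13 by limma-voom and 6 to 13 with a library left out, and of the phospholipase list 3 at an adjusted p under 0.01 and 3 to 7 with a library left out. Whether the replicate numbers pair the libraries is not known. The correlations between a female and a male library of equal number, after subtracting each sex's mean, were 0.206, -0.00405 and 0.152. For female replicates 1 and 3 the highest correlation was with the male library of equal number. For female replicate 2 it was with male replicate 3 (0.104). With the replicate block, 1619 genes were higher and 1449 lower, and Abca1 had a log2 fold change of 0.38 and Apoe of -0.65. At this depth, levels under 0.128 to 0.171 CPM (3 counts) cannot be told from 0 in a single library.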
